A study of Rattus norvegicus with 24 samples.

Results

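Toll-like receptors sense microbial products and molecules set free by damaged cells, and nuclear factor kappa B (NF-kB) is the transcription factor family through which they act on genes. Here 32 genes of this pathway, measured by 34 probes, were studied among the 7263 gene names (8453 probes) of a custom rat microarray. The members were taken by name from the gene names in the scanner files: the Toll-like receptors, *Cd14*, the adaptors *Myd88* and *Ticam2*, the IRAK kinases and their binding proteins, the kinases of the TAK1 and IKK complexes, the NF-kB subunits and the inhibitors of the IkB family. Of 35 probes that matched, 1 was left out because its gene, *Nfkbil1*, lies in the MHC, which the study tabulated separately. No probe name matched *Tirap*, *Ly96*, *Lbp*, *Relb*, *Tbk1*, *Ticam1* or the current names of the NOD-like receptors, and these are not among the members. *Nod2* appears below under its older name *Card15*, among further genes of the pathway. Through its accession or synonyms, the probe named *Map3k7ip2* corresponds to *Tab2* of the current RefSeq annotation.

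The arrays compared skin explants from a culture model of the graft-versus-host reaction, in which lymphocytes attack skin in the dish. All skin came from 12 male BN rats aged 15 weeks. The syngeneic sample of each rat was skin cultured for 3 days with BN lymphocytes and the allogeneic sample was skin of the same rat cultured for 3 days with PVG lymphocytes, and in both cases the lymphocytes had first met irradiated BN splenocytes in a mixed lymphocyte reaction of 7 days. The RNA of both samples was hybridized together to 1 array in Cy3 and Cy5 and to another array with the dyes exchanged, so that 24 arrays stand for 12 rats, and n is 12 rats unless stated. An explant has no blood supply and its RNA includes that of any lymphocytes which stayed with the skin.

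In outline, a Toll-like receptor that has bound its ligand recruits the adaptor MyD88, or for some receptors TRIF through TRAM, the product of *Ticam2*. IRAK kinases then activate TRAF6 and the kinase TAK1, which switches on the IKK complex. IKK marks IkB proteins for destruction, and the NF-kB dimers that they had held in the cytoplasm enter the nucleus, where they induce cytokines, chemokines and also the genes of several IkB proteins, which closes a negative feedback loop. In skin, keratinocytes, dermal macrophages, dendritic cells and infiltrating leukocytes all use this pathway.

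All values below are log2 ratios of the sample labelled as allogeneic over the sample labelled as syngeneic, as the dyes in the sample labels give them. This direction is the opposite of that in the study's text, so "lower" means less signal in the sample labelled as allogeneic. The study also reports qRT-PCR on a part of these sample pairs and on independent explants, which mostly went in its own direction. No member was among the genes it tested so. Which direction is right could not be settled here, and if the labels are exchanged every sign below turns. A probe was called when its mean over 12 rats differed from 0 at an adjusted p under 0.05 by limma with Benjamini-Hochberg adjustment over all 8453 probes.

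The arrays differed in brightness and 1 rat stood apart. Median spot intensities were 135.5 to 6668 in Cy3 and 269.2 to 25640 in Cy5, with the highest values on 1 array of rat 10, and 74.8% to 99.9% of the probe spots of an array were well above background. In both samples, rat 10 had the highest intensity of *Tlr2*, *Tlr6* and *Rel* given below. It had the lowest of *Cd14*, *Myd88*, *Rela*, *Nfkb1* and the uncalled *Nfkbia* probe. These ranges therefore partly reflect that rat. The log2 ratios of rat 8 correlated with those of the other rats at 0.0998 to 0.241, whereas the other 11 rats correlated with each other at 0.285 to 0.823. The arrays of rat 8 with exchanged dyes correlated with each other at 0.944, the highest value of any rat. In rat 8 the mean log2 ratio of the keratinocyte marker probes was 1.83, against -0.21 to 0.37 in the others. Their part in the results was not tested, and results are given with and without rat 8 where it matters.

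*Tlr2*, *Tlr6*, *Rel* and *Nfkbia* were lower in the sample labelled as allogeneic, and no member was higher. Thus 4 of 34 member probes (11.8%) were called lower, while 8.48% of all probes were called lower, 8.78% higher and 17.3% in either direction. The share of members called therefore lay near that of the array as a whole. Without rat 8, 12 of 34 probes (35.3%) were called lower against 12.2% of all probes, and 0 were called higher against 12.5% (24.7% in either direction). At an unadjusted p under 0.05 by limma, 10 of 34 member probes were lower and 1 was higher with 12 rats. Over all probes 13.2% were lower, 17% higher and 30.2% in either direction. The median log2 ratio of the members was -0.02 (all probes 0.01), and 21 of 34 lay below 0, a larger share than the 42.6% of all probes.

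The probes behind the 4 calls, and the other probe of *Nfkbia*, are shown 5′ to 3′ so that it can be seen what was measured. Each is 60 bases long. Capitals mark the longest run of bases that the *Tlr2* and *Tlr6* probes have in common (10 bases) and the longest that both *Nfkbia* probes have in common (6 bases).
Tlr2 (A_43_P19763): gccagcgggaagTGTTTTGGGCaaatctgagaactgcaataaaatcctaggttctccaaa
Tlr6 (A_44_P200968): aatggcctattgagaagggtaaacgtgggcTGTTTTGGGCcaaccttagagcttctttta
Rel (A_44_P248193): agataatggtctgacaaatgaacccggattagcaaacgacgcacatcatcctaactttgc
Nfkbia (A_42_P544487): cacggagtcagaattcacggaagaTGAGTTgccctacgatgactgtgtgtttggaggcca
Nfkbia (A_44_P261444): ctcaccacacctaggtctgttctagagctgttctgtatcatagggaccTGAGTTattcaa
In the rn3 build named by the file headers they lie at chr2:175558266-175558323, chr14:46102938-46102997, chr14:104664941-104665000, chr6:75732946-75733465 and chr6:75733342-75733401. All but the *Tlr6* probe were given on the minus strand. The interval of the called *Nfkbia* probe is 520 bases long and contains that of the other, so that its 60 bases are not contiguous in the genome. Exon and UTR annotation of that build was not used here.

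**Figure D1:**
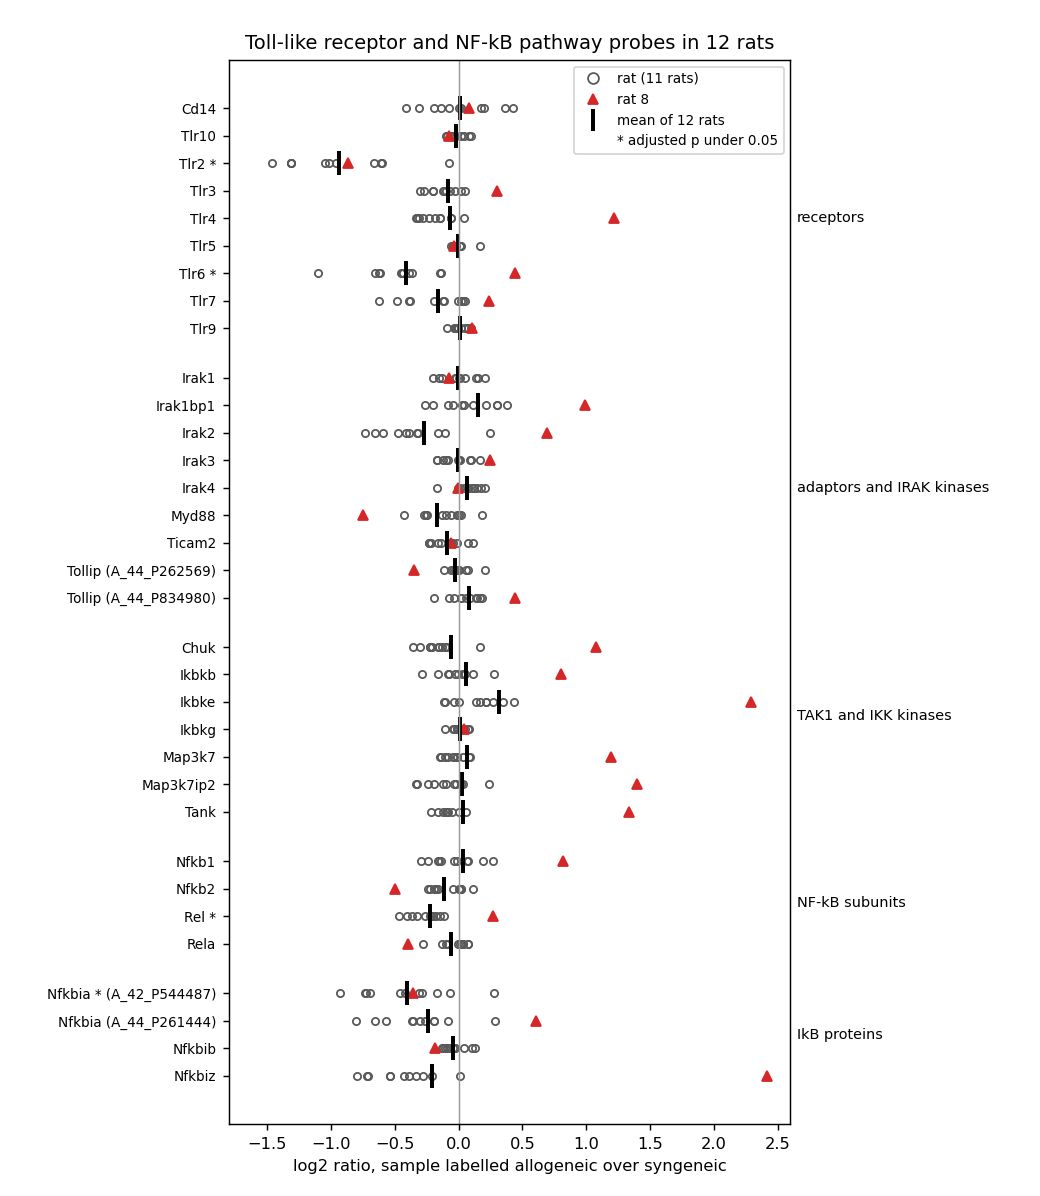
Log2 ratio of the member probes in each rat (x axis, sample labelled as allogeneic over syngeneic), grouped by role, with 1 probe not shown. Open circles are 11 rats, the red triangle is rat 8 and the bar is the mean of 12 rats. The *Tlr2* probe lies below 0 in all 12 rats, and rat 8 is the highest of the 12 rats for 20 of all 34 member probes. That is 58.8% of the members, against 31% of all probes. Rat 8 is the lowest for 14.7% of the members and 22.5% of all probes.

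Among the receptors, 2 of 9 were called. TLR2 recognizes bacterial lipoproteins as a dimer with TLR1 or TLR6. The log2 intensity of *Tlr2* was 11.06 at the lowest, 11.29 at the median and 12.66 at the highest in the 12 allogeneic samples and 11.36, 12.31 and 13.26 in the syngeneic samples. The ranges overlapped, but within rats the allogeneic sample was the lower in 12 of 12, with the smallest difference in rat 11 (-0.07) and the largest in rat 5 (-1.46). The mean log2 ratio was -0.935 ± 0.401 (SD, n = 12; 95% confidence interval -1.175 to -0.696), a level 0.523 times that of the syngeneic sample, with an adjusted p of 0.000152 (limma). On the array, 300 probes (3.55%) were lower in all 12 rats and 6.19% had the same sign in all 12. By slide the mean was -0.98, -1.16 and -0.66. In tissue RNA, fewer cells that express a gene and less RNA per cell cannot be told apart.

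TLR6 is the partner of TLR2 for diacylated lipoproteins. Its log2 intensity was 8.41, 8.78 and 10.52 (lowest, median, highest) in the allogeneic and 8.26, 9.22 and 10.91 in the syngeneic samples. The allogeneic sample was lower in 11 of 12 rats, from -1.099 in rat 9 to 0.45 in rat 8, the exception. The mean was -0.41 ± 0.37 (SD, n = 12) with an adjusted p of 0.0135 by limma, and without rat 8 it was -0.49 ± 0.27 (SD, n = 11) with an adjusted p of 0.000589. *Tlr10*, whose probe starts 41231 bases from that of *Tlr6* on chromosome 14 (rn3), had a mean of -0.02, but passed the scanner's background limit on 2 of 24 arrays only.

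TLR4 with its coreceptor CD14 detects lipopolysaccharide. The log2 intensity of *Tlr4* was 8.70 to 9.35 (median 9.01) in the allogeneic and 7.48 to 9.54 (median 9.26) in the syngeneic samples, and the value of 7.48 belonged to rat 8. In rat 8 the log2 ratio was 1.22, whereas the other 11 rats ranged from -0.34 to 0.04 and 10 of them were below 0. With 12 rats the mean was -0.07 ± 0.42 (SD; adjusted p = 0.744 by limma), and with 11 it was -0.18 ± 0.12 (adjusted p = 0.00273). *Cd14* had log2 intensities of 10.96 to 13.30 (median 12.81) in the allogeneic and 11.37 to 13.30 (median 12.69) in the syngeneic samples. Its log2 ratio was 0.01 ± 0.26 (SD; 95% confidence interval -0.143 to 0.165; adjusted p = 0.936 by limma), with 5 rats lower and 7 higher.

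The receptors of nucleic acids that signal from endosomes were not called with 12 rats. The values were -0.085 for *Tlr3* (double-stranded RNA), -0.16 for *Tlr7* (single-stranded RNA) and 0.01 for *Tlr9* (CpG DNA). Without rat 8 both *Tlr3* (-0.12, adjusted p = 0.0189) and *Tlr7* (-0.20, adjusted p = 0.0403 by limma) were called lower. The *Tlr7* probe was dim, with median log2 intensities of 6.73 (allogeneic) and 6.91 (syngeneic). It exceeded background clearly on 20 of 24 arrays in each sample. *Tlr5*, the receptor of flagellin, was at -0.003 ± 0.06 (SD).

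**Figure D2:**
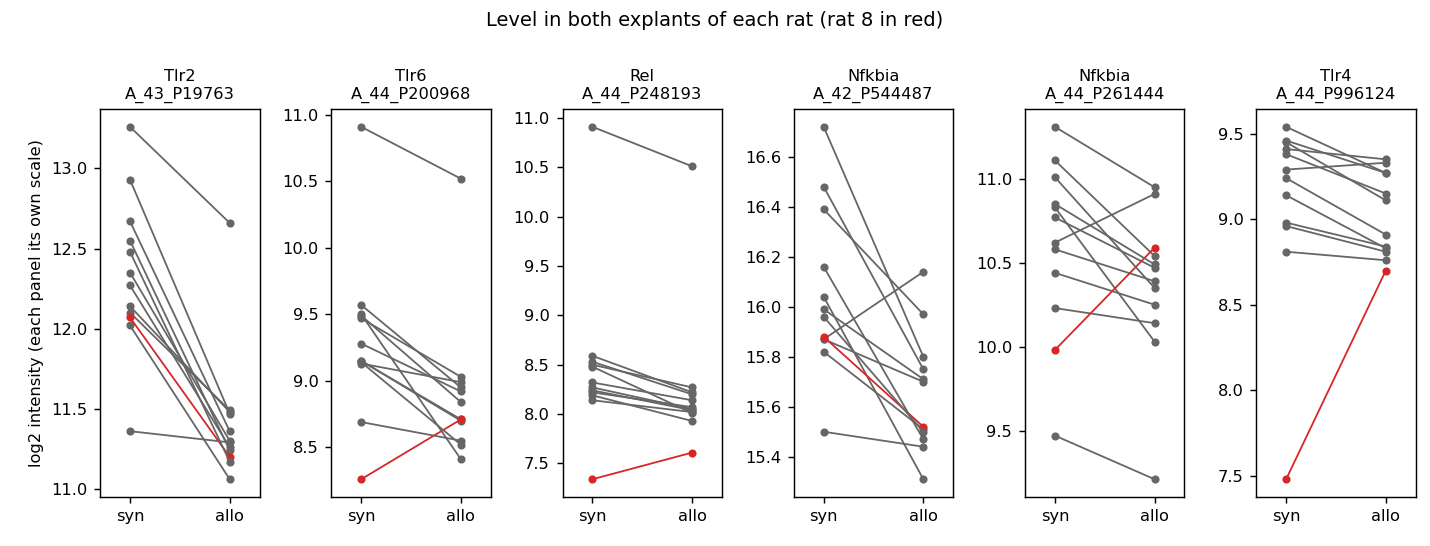
Log2 intensity (y axis, its own scale in each panel) of 6 member probes in the syngeneic and allogeneic sample of each of 12 rats, joined by a line per rat, with rat 8 in red. For *Tlr2* every line falls, and for *Tlr6*, *Rel* and *Tlr4* the line of rat 8 rises from the lowest syngeneic value.

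No adaptor and no IRAK probe was called with 12 rats (9 probes, 8 genes). *Myd88*, the adaptor of nearly all Toll-like receptors, had log2 intensities of 8.25 to 8.94 (median 8.71) in the allogeneic and 8.07 to 9.08 (median 8.82) in the syngeneic samples. Its log2 ratio was -0.17 ± 0.25 (SD; adjusted p = 0.105 by limma), with 9 of 12 rats below 0, and -0.12 without rat 8 (adjusted p = 0.0979). *Ticam2* was at -0.09 (10 of 12 rats below 0; adjusted p = 0.0822) and exceeded background clearly on 20 of 24 arrays. *Irak2*, which sustains late signalling, was at -0.27 with 12 rats (adjusted p = 0.114) and was called lower without rat 8 (-0.36, 10 of 11 rats; adjusted p = 0.00497 by limma). *Irak4*, the first kinase recruited by MyD88, was the 1 member above 0 at an unadjusted p under 0.05 (0.07 ± 0.10, 9 of 12 rats; adjusted p = 0.155). *Irak1bp1*, whose product binds IRAK1, was at 0.15 (adjusted p = 0.299). The inhibitory *Irak3* was at -0.003, and the *Tollip* probes, for another inhibitor of this step, were at -0.025 and 0.08.

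The kinases downstream were not called with 12 rats either (8 probes, 8 genes). *Map3k7*, which encodes TAK1, its partner *Map3k7ip2*, and the subunits of the IKK complex, *Chuk* (IKK alpha), *Ikbkb* (IKK beta) and *Ikbkg* (NEMO), lay between -0.06 and 0.07. *Ikbke*, an IKK-related kinase of the interferon arm, had the highest mean of all members (0.32 ± 0.65; 9 of 12 rats above 0; adjusted p = 0.246 by limma). Rat 8 was at 2.295, and without it the mean was 0.14 ± 0.18 (adjusted p = 0.0633). *Chuk* (-0.16) and *Tank* (-0.085), a scaffold that binds TRAF proteins and IKK-related kinases, were called lower without rat 8, with adjusted p values of 0.00939 and 0.0167. In rat 8 they were at 1.08 and 1.34.

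Of the NF-kB subunits, *Rel* was called and *Nfkb1*, *Nfkb2* and *Rela* were not. c-Rel, the product of *Rel*, is the subunit most typical of lymphoid and myeloid cells. The log2 intensity of *Rel* was 7.61 to 10.51 (median 8.06) in the allogeneic and 7.34 to 10.91 (median 8.30) in the syngeneic samples. The allogeneic sample was lower in every rat but rat 8, and the other 11 rats ranged narrowly from -0.47 to -0.11. The mean was -0.22 ± 0.19 (SD, n = 12; adjusted p = 0.0107 by limma), and -0.265 ± 0.112 without rat 8 (adjusted p = 0.000171). By the exact signed-rank test over 12 rats the adjusted p was 0.0578. By slide the means were -0.24, -0.06 and -0.36.

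*Rela*, which encodes the p65 subunit, had log2 intensities of 10.67 to 11.10 (median 10.95) in the allogeneic and 10.59 to 11.37 (median 10.95) in the syngeneic samples, and a log2 ratio of -0.06 ± 0.15 (SD; adjusted p = 0.35). *Nfkb1*, for p105 and p50, had 9.51 to 11.63 (median 11.40) and 9.32 to 11.69 (median 11.43), and a log2 ratio of 0.03 ± 0.30 (SD; adjusted p = 0.834 by limma). *Nfkb2*, for p100 and p52, was at -0.11 ± 0.17 (adjusted p = 0.117). For these 3 subunits 6 to 7 of 12 rats lay below 0.

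IkB alpha, the product of *Nfkbia*, is the main inhibitor that retains NF-kB in the cytoplasm, and its gene is a direct target of NF-kB. Its called probe had log2 intensities of 15.31 to 16.14 (median 15.61) in the allogeneic and 15.50 to 16.72 (median 15.98) in the syngeneic samples. The allogeneic sample was lower in all rats but rat 3 (0.28), down to -0.93 in rat 10, and rat 8 (-0.36) lay among the others. The mean was -0.41 ± 0.335 (SD, n = 12; adjusted p = 0.00809 by limma), and -0.41 without rat 8. The other probe had log2 intensities of 9.21 to 10.95 (median 10.43) and 9.47 to 11.31 (median 10.70) and a mean of -0.24 ± 0.39 (adjusted p = 0.141). It was below 0 in 10 of 12 rats, with rats 3 (0.28) and 8 (0.60) above, and without rat 8 it was called as well (-0.32; adjusted p = 0.0128). Without rat 8 both probes were thus called lower.

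*Nfkbiz*, for the atypical nuclear protein IkB zeta, was an extreme case of the same kind. Its log2 ratio was 2.42 in rat 8 and between -0.80 and 0.01 in the others, so that the mean was -0.21 ± 0.86 (adjusted p = 0.596) with 12 rats and -0.45 ± 0.24 (10 of 11 rats below 0; adjusted p = 0.000559 by limma) with 11. *Nfkbib*, for IkB beta, was at -0.04 ± 0.095 (adjusted p = 0.329).

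The genes called without rat 8 thus included both probes of *Nfkbia*, *Nfkbiz* and *Rel*, whose promoters are of interest because NF-kB is known to act on its own regulators. RefSeq promoters (GRCr8, 250 bases before to 50 after the gene start) were found for 28 of 32 member genes. The NF-kB consensus was searched on both strands, with overlapping matches merged. It matched in 9 of 29 promoters of members (31.0%; *Ikbkg*, *Irak3*, *Nfkb1*, *Nfkb2*, *Nfkbia*, *Nfkbiz*, *Rel*, *Tank* and *Tlr2*), and in 7.51% of 33469 promoters of all genes. The median GC content was 57.0% for the members and 51.7% for all, so the sets differed in base composition too. The promoters of the called genes that held a match are shown 5′ to 3′ with the matches in capitals. That of *Tlr6* held none. Of the other genes called without rat 8, *Nfkbiz* held a match, and *Tank* held 1 in the first of its promoters only. *Tlr3*, *Tlr4*, *Tlr7* and *Chuk* held none, and no promoter was found for *Irak2*.
Tlr2 (chr2:171504508-171504807, minus strand): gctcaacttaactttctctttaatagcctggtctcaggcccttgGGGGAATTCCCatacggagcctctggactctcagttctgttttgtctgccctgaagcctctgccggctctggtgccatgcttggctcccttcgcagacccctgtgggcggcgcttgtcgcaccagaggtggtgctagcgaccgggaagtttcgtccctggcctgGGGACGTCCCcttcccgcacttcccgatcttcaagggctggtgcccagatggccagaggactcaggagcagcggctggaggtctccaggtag
Rel (chr14:101921889-101922188, minus strand): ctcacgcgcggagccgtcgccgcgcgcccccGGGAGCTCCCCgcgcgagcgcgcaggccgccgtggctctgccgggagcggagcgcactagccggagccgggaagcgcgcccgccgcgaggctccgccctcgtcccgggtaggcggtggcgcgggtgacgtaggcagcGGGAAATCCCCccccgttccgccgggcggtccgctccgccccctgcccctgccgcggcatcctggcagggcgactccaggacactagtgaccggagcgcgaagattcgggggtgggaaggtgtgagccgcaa
Nfkbia (chr6:78597023-78597322, minus strand): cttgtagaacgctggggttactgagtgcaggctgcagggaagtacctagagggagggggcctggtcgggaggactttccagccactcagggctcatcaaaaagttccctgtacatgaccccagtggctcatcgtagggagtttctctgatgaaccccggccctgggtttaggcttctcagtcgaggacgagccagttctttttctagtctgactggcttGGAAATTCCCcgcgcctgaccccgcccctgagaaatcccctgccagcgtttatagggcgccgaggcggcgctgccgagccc
The matches began 206 and 42 bases before the gene start in *Tlr2*, 219 and 82 in *Rel* and 31 in *Nfkbia*. They are descriptions of these sequences, and no binding was measured. *Ikbkg*, *Irak3*, *Nfkb1* and *Nfkb2*, which also held a match, were not called in either fit.

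The dye orientations gave the same picture for the called genes but not for all members. Where Cy5 marked the allogeneic sample (12 arrays) and where Cy3 did (12 arrays), the mean was -0.94 and -0.93 for *Tlr2*, -0.35 and -0.47 for *Tlr6*, -0.44 and -0.37 for *Nfkbia*, and -0.13 and -0.31 for *Rel*. *Rel* was not called with Cy5 alone (adjusted p = 0.0791 by limma). *Irak1* was -0.26 in the first and 0.25 in the other, with a call in each, and *Tlr9* was 0.12 and -0.09, likewise. Such opposite calls were made for 478 probes of the array (5.65%), and the averages over both orientations of *Irak1* and *Tlr9* were -0.004 and 0.01. Each orientation alone called more members than both together: with Cy5, 9 lower and 3 higher (all probes 14.3% and 17.1%), and with Cy3, 7 lower and 2 higher (all probes 14.6% and 15%).

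**Figure D3:**
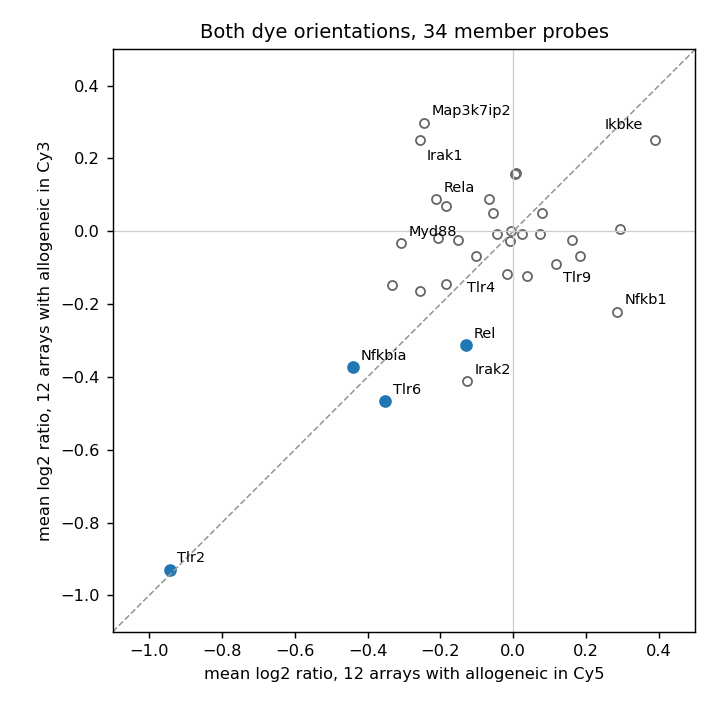
Mean log2 ratio of 34 member probes over 12 arrays each, Cy5 marking the allogeneic sample on the x axis and Cy3 on the y axis. Filled points were called over both, and the dashed line marks equal values. *Tlr2* lies on the line at -0.94 and -0.93, whereas *Irak1* lies at -0.26 and 0.25.

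Further genes of the pathway were looked at through a list of 109 genes, 79 of which were on the array with 90 probes. Of these probes 19 were called lower (21.1%, all probes 8.48%) and 1 higher (1.11%, all probes 8.78%), and the median log2 ratio was -0.02. Signalling proteins of leukocytes were among the 12 probes with the smallest p. They included the lipid phosphatase *Inpp5d* (-0.49), the kinases *Lyn* (-0.39) and *Syk* (-0.46) and the PI3-kinase *Pik3cg* (-0.10). *Cd36*, a scavenger receptor that presents lipids to TLR2 and TLR6, had the lowest mean (-1.41 ± 0.63, 12 rats; adjusted p = 0.000174 by limma). *Card15*, the older name of *Nod2* and thus an intracellular sensor of bacterial cell wall, had a mean of -0.095 and was below 0 in 12 of 12 rats. It passed the background limit on 8 of 24 arrays in the allogeneic and 11 in the syngeneic sample, and was called with opposite signs where Cy5 (-0.26) and where Cy3 (0.07) marked the allogeneic sample. *Pik3cg* passed that limit on 8 and 13 arrays. For *Tnfrsf1b*, a receptor for TNF, 2 of 3 probes were lower (-0.39 and -0.32, the other -0.09). *Socs1*, a feedback inhibitor (-0.35), and *Traf2* (-0.20 and -0.18, the first at -0.40 and 0.01 by dye orientation) were lower too, and the small GTPase *Rac1* was lower by 1 probe (-0.25) and at 0.03 by the other. The 1 probe called higher was *Map2k6*, a kinase upstream of p38 (0.16), named after its value was seen. Without rat 8, 26 were called lower and 6 higher, against 12.2% and 12.5% of all probes.

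Genes that NF-kB is known to induce moved in both directions. Of 81 genes listed, 58 were on the array with 70 probes, with a median of -0.055. Of these probes 17 were lower (24.3%, all probes 8.48%) and 8 higher (11.4%, all probes 8.78%). The share called higher thus lay near that of the array. Lower were the cytokine *Il1b* (-0.98 ± 0.53) and its antagonist *Il1rn* (-0.56 and -0.30), the chemokines *Ccl3* (-0.875 and -0.44) and *Ccl5* (-0.23), *Csf2* (-0.61), the urokinase receptor *Plaur* (-0.47), the stress gene *Hmox1* (-0.74), *Tgm2* (-0.41) and, by 2 of 3 probes, *Sqstm1* (-0.30 and -0.31). Where Cy5 and where Cy3 marked the allogeneic sample, *Hmox1* was at -0.26 and -1.21 and *Ccl5* at -0.13 and -0.33. The second *Ccl3* probe was at -0.21 and -0.67. None of these probes was called with Cy5 alone. The cell cycle gene *Ccnd1* was higher (0.46 ± 0.23, 12 rats). The remaining calls included *Vcam1*, an adhesion molecule of endothelium (0.72), on the higher side, and *Cxcl2*, a chemokine for neutrophils (-0.795), on the lower. *Il6* (0.29 and 0.30), *Icam1* (-0.09) and *Cxcl10* (0.26) were not called. These 5 genes were chosen after their values were seen. Without rat 8 the counts were 28 lower and 7 higher (40% and 10%, against 12.2% and 12.5% of all probes).

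**Figure D4:**
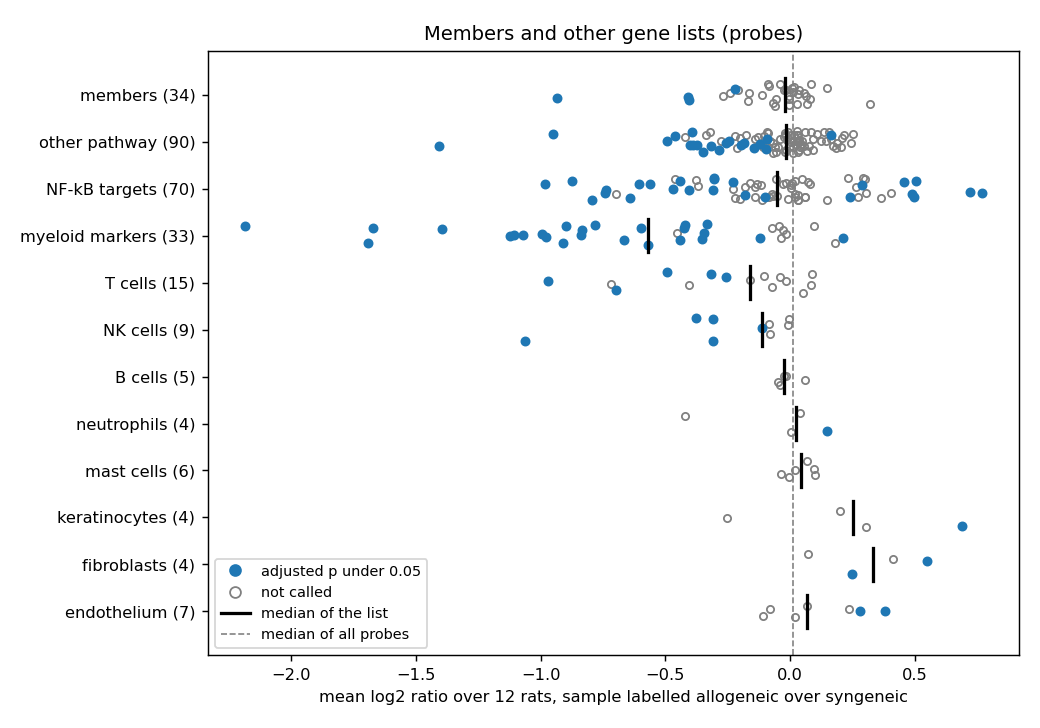
Mean log2 ratio over 12 rats (x axis) of each probe of the members and of the other lists (rows, number of probes in brackets). Filled points were called, bars are list medians and the dashed line is the median of all probes. The myeloid markers lie furthest to the left, with a median of -0.57.

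Markers of monocytes and macrophages, cells that are known to express *Tlr2* and *Tlr6*, were lower as well. Of 48 genes listed, 28 were on the array with 33 probes, of which 24 (72.7%, all probes 8.48%) were lower and 1 was higher, *C1qa* (0.21). Among the smallest p values were those of the Fc receptors *Fcgr3a* (-2.19) and *Fcgr3* (-1.12, -0.91 and -0.84), *Ncf1* (-1.07), *Trem2* (-1.69), *Tyrobp* (-0.44 and -0.98), *Ctss* (-1.40), *Itgb2* (-1.11) and *Sfpi1*, which encodes the myeloid factor PU.1 (-0.67). *Csf1r* was lower by 1 probe (-0.42) and at -0.03 by the other, and *Emr1*, *Cd163* and *Mrc1*, typical of resident macrophages, were not called (-0.07, 0.18 and -0.455). *C1qa* and these 4 genes were chosen after their values were seen. The summed intensity of the list was 63017 to 114781 in the allogeneic and 91528 to 260218 in the syngeneic samples, and no probe was at background on every array. The mean of the list was below 0 in 12 of 12 rats, from -1.315 in rat 9 to -0.17 in rat 11.

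Across the 12 rats, *Tlr2* followed the mean log2 ratio of these markers (Pearson r = 0.74, permutation p = 0.00693, adjusted over 4 probes 0.0277; Spearman rho = 0.82, permutation p = 0.00194, adjusted 0.00776). Without rats 9 and 11, the farthest from the median of the marker mean, r was 0.67. For *Tlr6* r was 0.60 (permutation p = 0.0478, adjusted 0.0956) and rho 0.74 (permutation p = 0.00781, adjusted 0.0156), and r was 0.21 without rats 9 and 11 but with rat 8 kept. Without rat 8, a setting chosen after the data were seen, r was 0.92 for *Tlr6* (permutation p = 0.00021, adjusted 0.00084, n = 11), and 0.72 when rats 9 and 11 were left out too. For *Nfkbia* r was 0.06 (permutation p = 0.859) and rho 0.09 (permutation p = 0.784), and for *Rel* r was -0.17 (permutation p = 0.556) and rho -0.50 (permutation p = 0.103, adjusted 0.137). These ratios share their arrays, and 4 rats a slide were too few for values within slides. The part of myeloid cell number in the results was not tested.

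**Figure D5:**
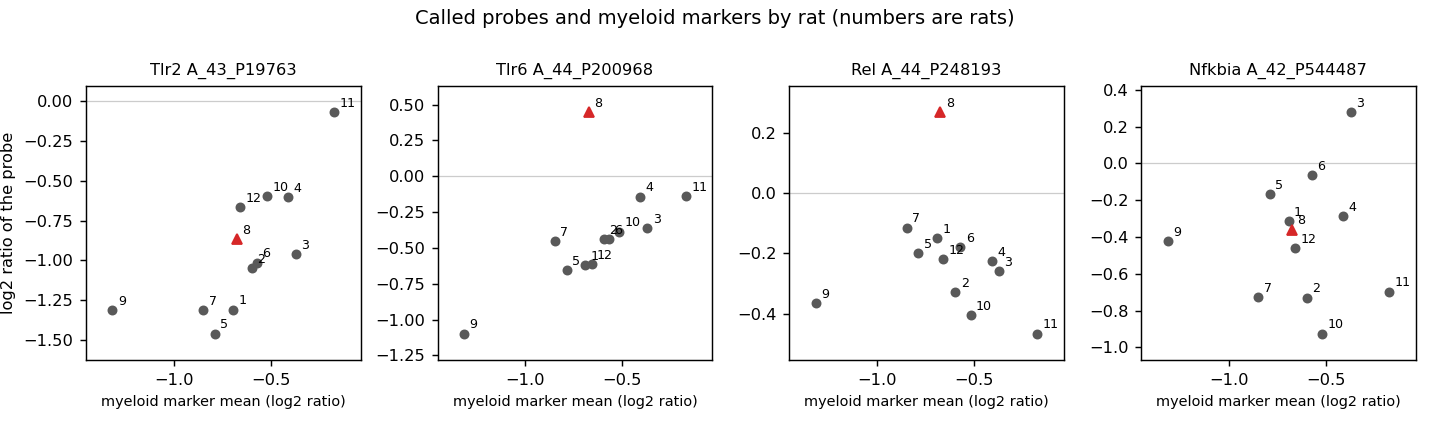
Log2 ratio of each called member probe (y axis) against the mean log2 ratio of 33 myeloid marker probes (x axis) in each of 12 rats, numbered, with rat 8 as a red triangle. *Tlr2* rises with the marker mean (r = 0.74), *Tlr6* does so with rat 8 off the line, and *Rel* and *Nfkbia* do not (r = -0.17 and 0.06).

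Markers of other cell types held fewer calls. Of the T cell markers 5 of 15 probes were lower (*Cd8b*, *Cd8a*, *Lck*, *Cd5* and *Cd2*, -0.26 to -0.97), and of the NK cell markers 5 of 9 (*Gzmb*, *Gzma*, *Nkg7* and *Klrb1a*, -0.115 to -1.06). These are 33.3% and 55.6%, against 8.48% of all probes. B cell (5 probes) and mast cell markers (6 probes) held no call, and of 4 neutrophil probes *Il8rb*, a chemokine receptor, was higher (0.15). The skin itself was represented by few probes, since 4 of 20 keratinocyte and 4 of 9 fibroblast markers listed were on the array and no keratin was among them, so that the tissue could be checked only in part. *Perp*, a desmosomal gene (0.69), *Sparc* (0.25) and *Col1a2* (0.55) of fibroblasts and both probes of endothelial *Cdh5* (0.38 and 0.28, the latter at 0.57 and -0.007 by dye orientation) were called higher. These were 1 of 4 keratinocyte, 2 of 4 fibroblast and 2 of 7 endothelial probes (25%, 50% and 28.6%, against 8.78% of all probes). The fibroblast probes *Pdgfra* (0.41) and *Thy1* (0.07) were not called. Nor were the endothelial probes *Vwf* (0.24), *Tek* (0.07), *Kdr* (0.02), *Tie1* (-0.08) and *Esam* (-0.11). *Perp* was at 2.71 in rat 8. The other keratinocyte probes, *Cdh1* (0.20), *Trp63* (0.30) and *Dsc2* (-0.255, below 0 in 10 of 12 rats), were not called. Without rat 8, 1 keratinocyte probe was called lower and 1 higher. Summed intensities were 92177 to 174287 in the allogeneic and 29855 to 137986 in the syngeneic samples for the keratinocyte markers, and 4163 to 8421 and 4886 to 10467 for the T cell markers. Their part in the members' values was not tested.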

How the data were processed

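Rat skin explants were profiled on a custom 2-color Agilent oligonucleotide array. The deposited intensity values are spot signals of Agilent Feature Extraction 9.5.1.1 in Cy3 and Cy5, with mean, background and processed columns, and were not yet normalized. The deposited series table of the authors holds log2 ratios, whose scale and direction are not stated. Its columns correlated at 0.703 to 0.957 with the log2 ratio of allogeneic over syngeneic processed signals, and its medians were -0.0268 to 0.0481. The submitters' notes name limma. The amplification kit in the labels differs from that in the study's methods, and the labels hold a transplantation protocol that does not concern these arrays.

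Mean signals were background-corrected (normexp, offset 50) and normalized by loess within each array in limma 3.58.1 (R 4.3.3), with 536 control spots at weight 0 and outlier spots left out. Spots of a probe were averaged, ratios were turned to allogeneic over syngeneic by the dye labels, and both arrays of each rat were then averaged. The 12 rat means were tested against 0 (lmFit, eBayes), with Benjamini-Hochberg adjustment over 8453 probes. The ratio on an array pairs both explants of a rat, as the shared rat number in the labels gives it. The 3 slides held 4 rats each. The number of arrays limits the precision. On simulated data for 12 rats, 91% of probes changed by 0.5 and 98% of those changed by 1 (log2) were recovered. There 200 probes were changed, and values were drawn independently from normal distributions without an outlying rat. Changes smaller than 0.5 were not simulated, so the recovery of such changes in these data is not known.

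The members and lists were chosen with earlier results of these data known. Full values are given for called members and for *Tlr4*, *Cd14*, *Myd88*, *Rela*, *Nfkb1* and *Nfkbia*. Every gene whose probes differ in their call is named among the members, and up to 12 probes with the smallest p in each other list, except a few items that are not reported here. Correlations used 100000 permutations. Alternatives covered background, normalization, dye orientation, dim probes, outliers, slide, test, pairing, rat 5 with its sign turned, a bright array and each rat left out.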

Additional observations from a re-analysis of the deposited data

How the results depend on the processing

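Over 27 alternatives, *Tlr2* was called in 26, *Tlr6* and *Nfkbia* in 25 each and *Rel* in 23, and all 4 were called with each of the 12 rats left out in turn. Of 917 single-member values under these alternatives, 839 kept their direction and side of the threshold, 21 passed it newly and 9 no longer passed it. In 45 the sign turned with no call before or after, 6 of them without rat 8 (such as *Map3k7*, from 0.07 to -0.03). In 3 the sign turned with a call in the alternative. These were *Tank* without rat 8 (-0.085, the lowest of -0.085 to 0.056 over all rats left out in turn), and *Tlr9* (-0.09) and *Irak1* (0.25) where Cy3 alone marked the allogeneic sample.

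Where Cy5 alone marked the allogeneic sample, 9 members were lower and 3 higher, over all probes 1213 were lower and 1446 higher, and 32 other pathway probes were called. With Cy3 only the counts were 7 and 2, 1236 and 1264, and 37. With no replicate block, so that the pairing of explants within a rat was dropped and channels were compared as independent samples, 1 member was lower, over all probes 146 were lower and 27 higher, and 5 other pathway, 5 target and 13 myeloid probes were called. With the sign of rat 5 turned, 0 probes were called in any of these counts by limma, while 841 probes were lower and 1003 higher at an unadjusted p under 0.05. In that setting r between *Tlr6* and the myeloid markers was 0.78 (permutation test, adjusted p = 0.00824), but 0.21 without rats 5 and 9. Turning rat 5 moves both of its values together and sets it apart, so this r cannot show a relation. Leaving out each rat in turn gave 4 to 12 members lower (12 without rat 8) and 0 to 1 higher (1, *Irak4*, without rat 3), 604 to 1029 probes lower and 551 to 1058 higher, and 18 to 32 other pathway, 21 to 35 target and 24 to 27 myeloid calls. Without rat 8, *Tlr6* followed the myeloid markers at r = 0.92. The cause of these changes was not tested. The within-slide values and those of the relation and the lists without rat 8 were added after seeing the data.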
